A study of Mus musculus with 10 samples.

Results

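The 10 genes of cholesterol efflux and lipoprotein uptake described here were measured across the libraries of a mouse stress study: Abca1, Abcg1, Nr1h2, Nr1h3, Mylip, Apoe, Cd36, Msr1, Lrp1 and Scarb1. They were chosen by symbol, as the liver X receptors (LXR), genes that these factors switch on, and receptors that take up lipoproteins. All 10 were found among the 48526 gene identifiers of the count table, and all 10 passed the filter on low counts that left 13334 genes for testing. The stressed libraries came from mice put under acute mental stress for 3 h on each of 3 consecutive days (5 libraries), and the non-stressed libraries from mice without it (5 libraries). All 10 libraries carry the strain label ApoE, and the labels give no allele, age or sex. The cell type on every label is the aortic endothelial cell, isolated by flow cytometry, with no sort markers given.

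LXR alpha and LXR beta are nuclear receptors that bind oxysterols, pair with a retinoid X receptor and raise transcription of genes that move cholesterol out of the cell. Macrophages that have taken up modified lipoproteins use this pathway to hand cholesterol to HDL and its apolipoproteins, and failure of this export is a step in the formation of foam cells in the aortic wall. Scavenger receptors such as those of Cd36 and Msr1 load such cells, while the transporters of Abca1 and Abcg1 unload them.

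Total counts ran from 18020220 to 38237346 per library. The lowest count of any of the 10 genes was 269 reads, of Apoe, so none was limited by detection. Of 11 endothelial markers, 3 reached a mean of 1 CPM (a scale on which the counts of each library have the same sum), and Tek, Cldn5 and Emcn had 0 reads. The summed level of that list was 32.7 to 79.9 CPM in stressed and 37.2 to 88.4 CPM in non-stressed libraries. The 7 monocyte and macrophage markers, among them Lyz2, Csf1r and Ptprc, summed to 26861 to 33125 CPM in stressed and 22510.0 to 33030.3 CPM in non-stressed libraries. The endothelial label is thus not borne out by its defining markers, and the samples are called libraries here. In libraries from many cells, fewer cells of a type and less RNA per cell cannot be told apart. Reads of the Y-linked gene Ddx3y exceeded 100 in 6 libraries, 3 per group, and were 0 in the other 4, so values are also given within these sets. Xist stood at 427 to 660 CPM in those 4 libraries and at 0 CPM in the 6, the pattern of female and male cells. Libraries of a group with and without Ddx3y reads thus cannot be repeats of 1 source. Beyond that, nothing says whether the replicates came from separate animals or pools. The p-values below speak of the variation among these libraries only, which may be technical in part.

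The promoter sequences of 7 of the 10 genes were matched in RefSeq (GRCm38.p6); Abcg1, Msr1 and Scarb1 were not matched. Those of the LXR targets Abca1 and Mylip are shown because they differ in whether the letters that LXR is known to bind lie next to the start site. LXR with its partner binds a direct repeat of a short half-site with a gap between the copies. The repeat was searched on both strands in the 250 bases before each start, in its strict form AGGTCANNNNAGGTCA and in the relaxed form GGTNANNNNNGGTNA, which also holds the strict one. The strict form lay in 0.0152% and the relaxed form in 0.621% of the 32851 windows of all genes. The first line is the window of Abca1 at chr4:53159896-53160145, minus strand, and the second that of Mylip at chr13:45389492-45389741, plus strand, both written 5′ to 3′ along the gene. Capitals mark the relaxed repeat and the E-box CACGTG, which lay in 6.02% of all windows.
Abca1: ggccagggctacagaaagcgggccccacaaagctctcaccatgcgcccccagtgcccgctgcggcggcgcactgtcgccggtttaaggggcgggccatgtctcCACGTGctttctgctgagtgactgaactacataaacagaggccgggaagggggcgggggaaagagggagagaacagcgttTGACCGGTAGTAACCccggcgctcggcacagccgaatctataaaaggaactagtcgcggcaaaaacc
Mylip: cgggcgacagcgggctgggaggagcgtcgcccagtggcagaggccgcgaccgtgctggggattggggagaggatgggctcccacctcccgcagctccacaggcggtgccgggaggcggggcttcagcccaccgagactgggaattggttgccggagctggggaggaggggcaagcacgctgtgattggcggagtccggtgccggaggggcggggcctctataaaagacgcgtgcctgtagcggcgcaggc

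In Abca1 the relaxed repeat spans bases 67 to 53 before the start and reads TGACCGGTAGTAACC on the strand shown, so that the repeat itself lies on the opposite strand. The E-box spans bases 147 to 142. No window of the other matched genes, Mylip, Nr1h2, Nr1h3, Apoe, Cd36 and Lrp1, held either form of the repeat, a further repeat GGTNANNGGTNA of the kind bound by PPAR factors (0.938% of all windows), or the E-box. This says only that these letters are not in these windows. The Cd36 window lies at 1 of several starts of that gene.

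Set per exon length, the 10 genes spanned a wide range of levels. Levels are in TPM, a scale with the same sum in each library, computed from the counts and the summed exon length of each gene. Lrp1, the large endocytic receptor for apolipoprotein E-bearing remnants and many other ligands, stood far above the rest with 562 ± 44.4 TPM (SD, n = 10). It was higher than 98.0% of all genes tested, and its lowest library lay above the highest library of any other of the 10. Abcg1, which encodes the transporter that exports cholesterol to HDL, followed with 171 ± 19.0 TPM (SD, n = 10). It was above Nr1h2 in 10 of 10 libraries, though their ranges overlapped.

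Nr1h2, the gene of LXR beta, stood at 137 ± 9.0 TPM (SD, n = 10) and Scarb1, which encodes the HDL receptor SR-BI, at 132 ± 12.2 TPM (SD, n = 10). Nr1h2 was the higher of this pair in 6 of 10 libraries, so they were not separated. Msr1, the class A macrophage scavenger receptor, stood at 104 ± 12.0 TPM (SD, n = 10). Mylip, which encodes the ubiquitin ligase IDOL that marks the LDL receptor for breakdown, stood at 87.0 ± 10.7 TPM (SD, n = 10). Abca1, whose product loads cholesterol onto lipid-poor apolipoprotein A-I, stood at 77.6 ± 12.8 TPM (SD, n = 10), with Mylip above it in 9 of 10 libraries.

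The low end held Cd36, Nr1h3 and Apoe. Cd36, the class B scavenger receptor for oxidised LDL and fatty acids, averaged 65.2 ± 42.2 TPM (SD, n = 10), and was above Nr1h3 in 8 of 10 libraries. Nr1h3, the gene of LXR alpha, stood at 35.9 ± 11.9 TPM (SD, n = 10). Apoe, the gene of apolipoprotein E, stood at 30.5 ± 6.72 TPM (SD, n = 10), still above 63.7% of all genes tested. Nr1h3 was above Apoe in 6 of 10 libraries, so these were not separated either.

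**Figure D1:**
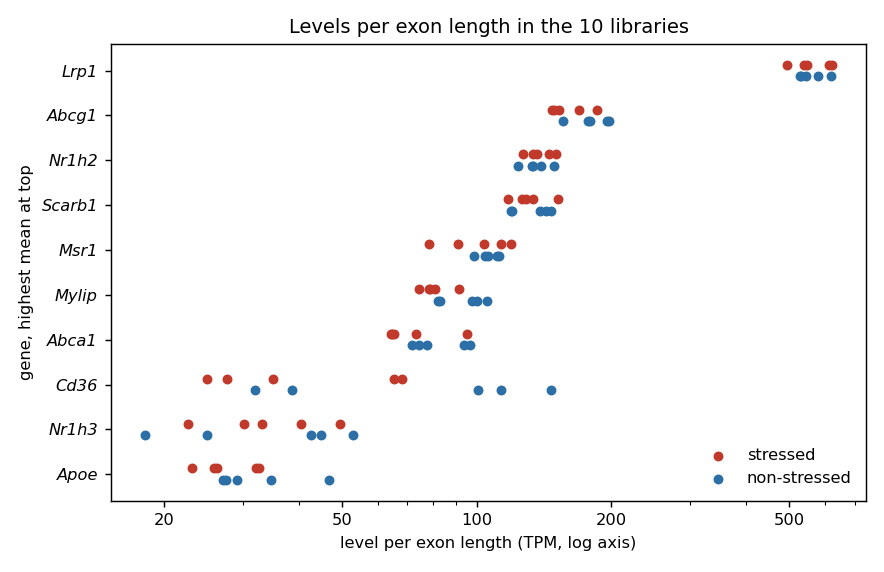
Level per exon length of each gene in TPM on a log axis, 1 point per library, stressed libraries above non-stressed ones within each gene. Lrp1 stands alone near 562 TPM, 8 neighbouring pairs of genes overlap, and Cd36 has the widest spread.

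Between stressed and non-stressed libraries, none of the 10 genes passed the test. In edgeR's quasi-likelihood test with Benjamini-Hochberg adjustment over 13334 genes, 0 of 10 had an adjusted p under 0.05, where 0.0075% of all genes did. At an unadjusted p under 0.05 there was 1 of 10, Cd36, against 5.53% of all genes. DESeq2 also called 0 of 10, against 0.1% of all genes, and had 0 at an unadjusted p under 0.05, against 4.87%. Limma-voom with quality weights called 0 of 10, against 0.015% of all genes, and had 4 at an unadjusted p under 0.05, against 8.84%. Log2 fold changes were below 0 for 7 of 10, against 49.1% of all genes, with a median of -0.09 beside 0.004 for all genes tested. No gene of the 10 had groups that did not overlap, which 1.09% of all genes had.

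**Figure D2:**
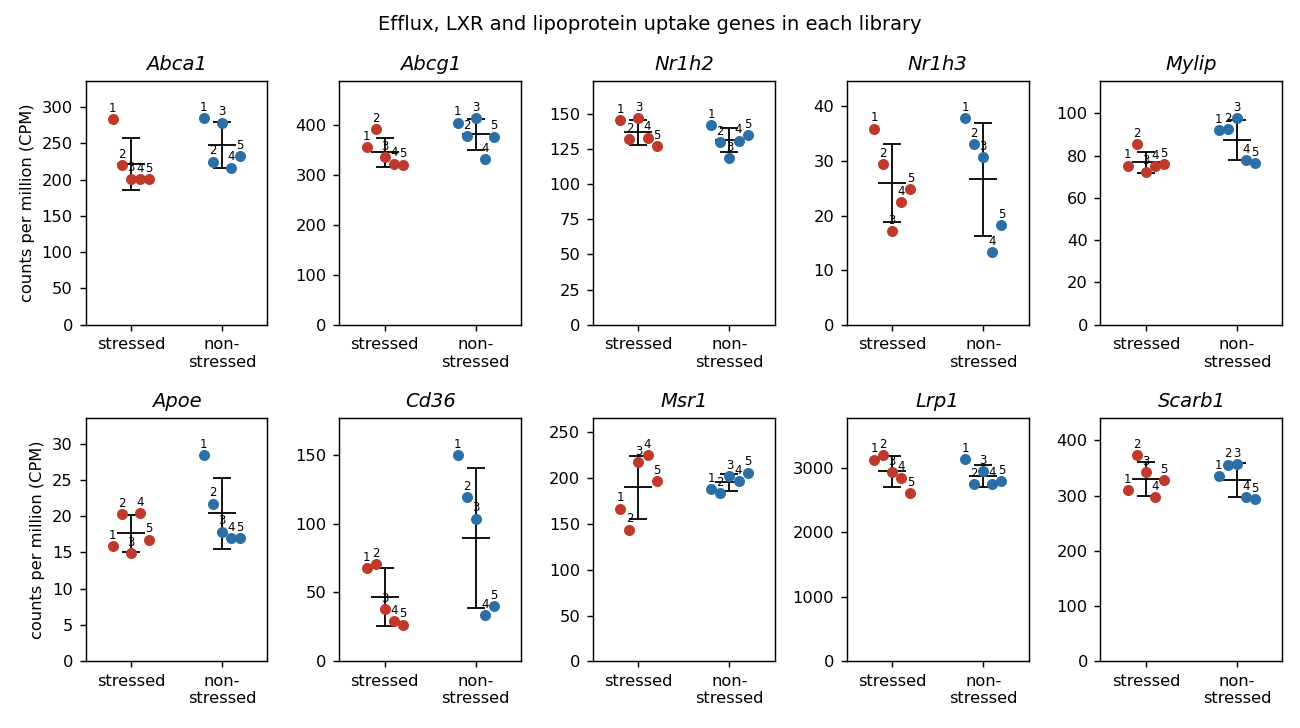
Level in CPM of the 10 genes, 1 point per library labelled with its replicate number, stressed left of non-stressed; the dash is the mean and the bar 1 SD (n = 5). The groups overlap for every gene, and Cd36 spans 26.7 to 70.7 CPM in stressed and 33.4 to 149.8 CPM in non-stressed libraries.

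**Figure D3:**
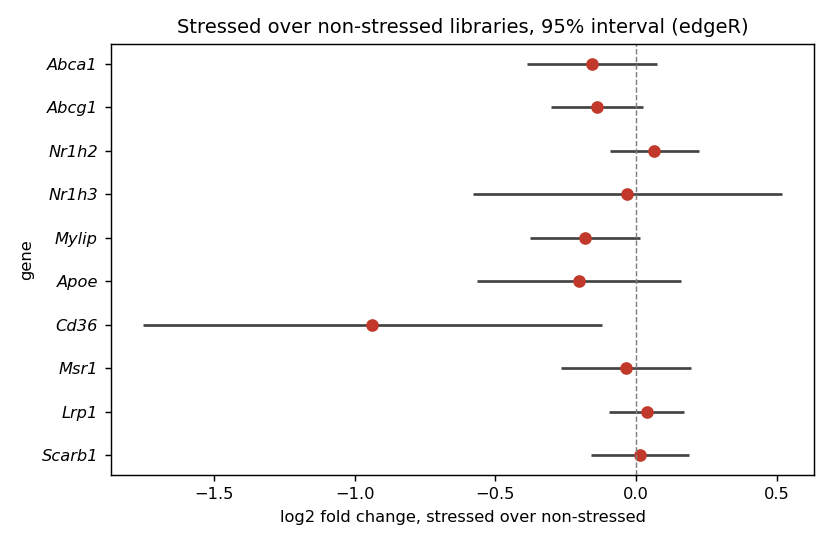
Log2 fold change of each gene, stressed over non-stressed, with its 95% interval from edgeR. The intervals of 9 genes include 0; that of Cd36 runs from -1.75 to -0.12, before adjustment for the number of genes tested.

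Of the receptors that take up modified lipoproteins, Cd36 had the widest difference. Cd36 (ENSMUSG00000002944, chromosome 5 from 17781690 to 17888801, minus strand, mm10) stood at 67.6, 70.7, 38.1, 29.5 and 26.7 CPM in stressed replicates 1 to 5, against 149.8, 119, 104, 33.4 and 40.2 CPM in non-stressed replicates 1 to 5. The 3 highest libraries were non-stressed, but non-stressed replicates 4 and 5 lay among the lowest. At each of the 5 numbers the stressed library was the lower, though the labels do not pair them. Means were 46.5 ± 21.1 CPM in stressed and 89.2 ± 50.7 CPM in non-stressed libraries (SD, n = 5 each). The log2 fold change was -0.94 (SE 0.38, 95% interval -1.75 to -0.12), with an unadjusted p of 0.0274 and an adjusted p of 0.874 in edgeR. The difference of mean log2 CPM, stressed minus non-stressed, was -0.79 in the 6 libraries with Ddx3y reads and -0.85 in the 4 without. For the other 9 genes it lay between -0.20 and 0.12 in the 6, and between -0.41 and 0.20 in the 4. The difference between these sets passed for none of the 10 (interaction term in edgeR, adjusted p = 1). No gene of the 10 was left at an unadjusted p under 0.05 (edgeR) without stressed replicate 3, 4 or 5, each left out alone. In those fits 560 to 743 of 13596 to 13681 genes were. The same held without non-stressed replicate 1, 2 or 3, against 572 to 735 of 13603 to 13727 genes. Of the 10, 2 were under 0.05 without stressed replicate 1 (all genes: 938 of 13740) or non-stressed replicate 5 (722 of 13590). It was 3 without stressed replicate 2 (all genes: 763 of 13664) or non-stressed replicate 4 (770 of 13708).

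Msr1 (ENSMUSG00000025044, chromosome 8 from 39581685 to 39642673, minus strand) stood at 166, 144, 217, 225 and 197 CPM in stressed replicates 1 to 5, against 188, 183, 202, 197 and 206 CPM in non-stressed replicates. Stressed libraries lay both above and below all non-stressed ones, 2 on either side. Its log2 fold change was -0.03 (SE 0.11, 95% interval -0.27 to 0.20, adjusted p = 0.993 in edgeR).

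Lrp1 and Scarb1 had the narrowest intervals around 0 among the uptake receptors. Lrp1 (ENSMUSG00000040249, chromosome 10 from 127538161 to 127621148, minus strand) averaged 2940.3 ± 233 CPM in stressed and 2871 ± 165 CPM in non-stressed libraries (SD, n = 5 each). Its log2 fold change was 0.04 (SE 0.06, 95% interval -0.09 to 0.17, adjusted p = 0.981 in edgeR). Scarb1 (ENSMUSG00000037936, chromosome 5 from 125277087 to 125341094, minus strand) averaged 329.9 ± 29.9 CPM in stressed and 328 ± 31.0 CPM in non-stressed libraries (SD, n = 5 each). Its log2 fold change was 0.01 (SE 0.08, 95% interval -0.16 to 0.19, adjusted p = 0.998 in edgeR).

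The efflux transporters had small negative fold changes that did not pass. Abca1 (ENSMUSG00000015243, chromosome 4 from 53030787 to 53159895, minus strand) stood at 284, 220.1, 201.3, 201.3 and 200.6 CPM in stressed replicates 1 to 5, against 285, 225, 279, 217 and 233 CPM in non-stressed replicates. Stressed replicate 1 was close to the highest non-stressed library, and 3 of 5 stressed libraries lay below all non-stressed ones. The log2 fold change was -0.16 (SE 0.11, 95% interval -0.39 to 0.07, adjusted p = 0.950 in edgeR), and -0.26 without stressed replicate 1.

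Abcg1 (ENSMUSG00000024030, chromosome 17 from 31057675 to 31117988, plus strand) stood at 356, 392.1, 336, 324 and 322 CPM in stressed replicates 1 to 5, against 406, 379, 415, 332 and 378 CPM in non-stressed replicates. Stressed replicates 4 and 5 lay below all non-stressed libraries. The log2 fold change was -0.14 (SE 0.08, 95% interval -0.30 to 0.02, adjusted p = 0.915 in edgeR).

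Mylip and Apoe, further genes that LXR switches on, also had negative fold changes. Mylip (ENSMUSG00000038175, chromosome 13 from 45389742 to 45412022, plus strand) stood at 75.3, 85.4, 72.5, 75.2 and 75.9 CPM in stressed replicates 1 to 5, against 91.9, 92.4, 97.7, 78.0 and 76.5 CPM in non-stressed replicates. Stressed replicate 2 alone among the stressed libraries was inside the non-stressed range. The log2 fold change was -0.18 (SE 0.09, 95% interval -0.38 to 0.02, adjusted p = 0.895 in edgeR).

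Apoe (ENSMUSG00000002985, chromosome 7 from 19696109 to 19699188, minus strand) stood at 15.9, 20.2, 14.9, 20.4 and 16.8 CPM in stressed replicates 1 to 5, against 28.4, 21.7, 17.9, 16.9 and 17.0 CPM in non-stressed replicates. Reads of the gene named by the strain label were thus counted in all 10 libraries, 269 to 831 per library. Counts per gene do not show which exons they lie in, so they check neither a disrupted nor an intact allele. The log2 fold change was -0.20 (SE 0.17, 95% interval -0.56 to 0.16, adjusted p = 0.950 in edgeR). It was -0.062 without non-stressed replicate 1, the highest library, and -0.10 with limma-voom.

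The LXR genes themselves had fold changes close to 0. Nr1h2 (ENSMUSG00000060601, chromosome 7 from 44549616 to 44553951, minus strand) stood at 146, 132, 147, 133 and 127 CPM in stressed replicates 1 to 5, against 142, 130.1, 119, 131 and 135 CPM in non-stressed replicates. Its log2 fold change was 0.06 (SE 0.07, 95% interval -0.09 to 0.22, adjusted p = 0.963 in edgeR). Nr1h3 (ENSMUSG00000002108, chromosome 2 from 91184061 to 91202834, minus strand) stood at 35.9, 29.4, 17.1, 22.5 and 24.9 CPM in stressed replicates 1 to 5, against 37.8, 33.0, 30.7, 13.3 and 18.2 CPM in non-stressed replicates. The lowest and the highest library of Nr1h3 were both non-stressed. Its log2 fold change was -0.03 (SE 0.26, 95% interval -0.58 to 0.52, adjusted p = 0.998 in edgeR). Exons of Nr1h3 overlap the predicted gene Gm13783 on the same strand, so its counts are uncertain to that extent.

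By counts over summed exon length, LXR beta stood above LXR alpha in every library. The ratio depends on the annotated lengths and on how reads shared by Nr1h3 and Gm13783 were counted. Per exon length Nr1h2 was 3.04, 3.37, 6.43, 4.44 and 3.83 times Nr1h3 in stressed replicates 1 to 5, and 2.82, 2.95, 2.91, 7.38 and 5.56 times in non-stressed replicates. The log2 ratio of Nr1h3 to Nr1h2 was -2.03 ± 0.42 in stressed and -1.99 ± 0.65 in non-stressed libraries (SD, n = 5 each). The groups differed by -0.03 (exact permutation test, two-sided, p = 0.937, adjusted p = 0.937 over 4 library measures). The 252 assignments allow no p below 0.00794.

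The 10 genes also differed in how much they varied over all 10 libraries, a spread that includes any difference between the groups. The SD of log2 CPM was 0.89 for Cd36, where the 1941 genes tested at a like level (within 0.5 log2 CPM) had a median SD of 0.18 and 99.8% of them had an SD no higher. Nr1h3 had an SD of 0.50, at the percentile 96.4 of 1878 such genes, and Abca1 one of 0.20, at the percentile 87.4 of 810. Nr1h2 was among the steadiest with an SD of 0.09, at the percentile 10.4 of 1302 genes. From its lowest to its highest library Cd36 varied 5.89-fold and Nr1h3 2.92-fold, while Nr1h2 varied 1.22-fold and Lrp1 1.26-fold.

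Cd36 and Nr1h3, the genes that varied most, correlated with markers of non-classical monocytes, the patrolling blood monocytes that are low in Ly6C. The relations with marker levels were chosen after the data were seen. The level of 7 such markers (Nr4a1, Ace, Treml4, Cx3cr1, Spn, Eno3 and Pou2f2, mean log2 CPM) was 8.68 ± 0.18 in stressed and 8.72 ± 0.44 in non-stressed libraries (SD, n = 5 each). This difference of -0.04 did not pass (exact permutation test, two-sided, p = 0.841, adjusted p = 0.937 over 4 measures). The level was 8.93, 8.78, 8.66, 8.53 and 8.50 in stressed replicates 1 to 5. In non-stressed replicates it was 9.18, 8.91, 8.95, 8.12 and 8.42. The permutation p-values of the correlations treat the 10 libraries as exchangeable. A trend shared by replicate number therefore cannot be told apart from one with the markers. Across the 10 libraries Nr1h3 had a Pearson r of 0.904 with this level (permutation p = 0.000380, adjusted p = 0.00440 over 20 relations) and a Spearman rho of 0.879 (permutation p = 0.00193, adjusted p = 0.0361). Without the 2 libraries farthest from the median marker level r was 0.800, after subtraction of the group means 0.908, and within the 6 libraries with Ddx3y reads 0.902 (exact permutation p = 0.0139). Of 13327 genes tested, 0.405% had an r with this level at least as high.

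Cd36 had an r of 0.863 with the non-classical marker level (permutation p = 0.00161, adjusted p = 0.0107) and a rho of 0.806 (permutation p = 0.00784, adjusted p = 0.0523). The r was 0.887 without the 2 farthest libraries, 0.954 after subtraction of the group means and 0.816 within the 6 libraries with Ddx3y reads (exact permutation p = 0.0333). An r at least as high was found for 1.09% of genes. Cd36 left a gap between 40.2 and 67.6 CPM, with 5 libraries on either side, too few for an r within each. The libraries above the gap were stressed replicates 1 and 2 and non-stressed replicates 1, 2 and 3.

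Nr1h2 did not follow its paralogue. Its r with the non-classical marker level was 0.108 (permutation p = 0.770, adjusted p = 0.811), and 39.0% of genes had an r at least as high. For Abcg1 and Abca1 the r was 0.676 and 0.671 (permutation p = 0.0339 and 0.0373), for Mylip 0.619 (permutation p = 0.0584), and none of these passed adjustment (adjusted p = 0.0932, 0.0932 and 0.111). An r as high as that of Abcg1 was found for 7.19% of genes. The 4 libraries without Ddx3y reads are too few for an r of their own.

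**Figure D4:**
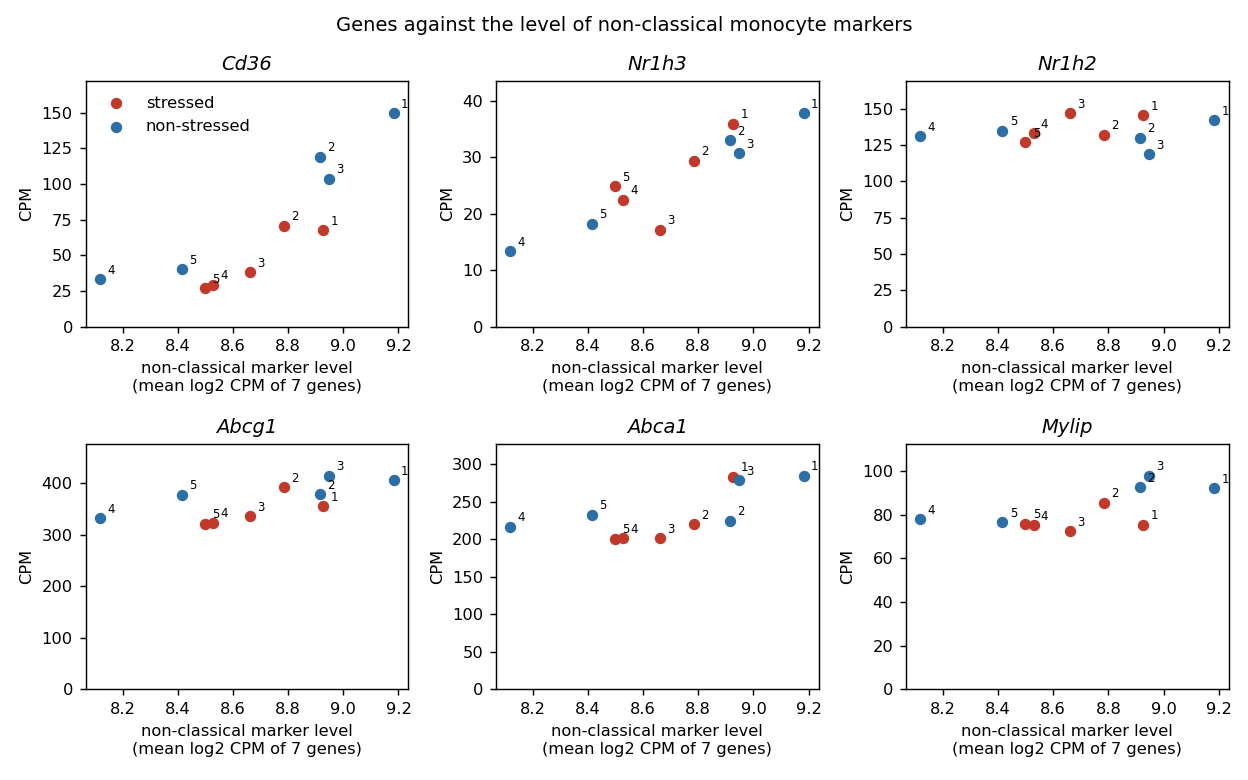
Level in CPM of 6 genes against the mean log2 CPM of 7 non-classical monocyte markers, 1 point per library labelled with its replicate number. Cd36 (r = 0.863) and Nr1h3 (r = 0.904) are high where the markers are high in both groups, while Nr1h2 (r = 0.108) stays flat.

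A list of classical monocyte markers, named for the Ly6C-high cells that enter inflamed tissue, had a negative correlation with Cd36. The mean log2 CPM of 6 such markers, among them Ly6c2, Ccr2, Chil3, F13a1 and Vcan, was 10.15 ± 0.17 in stressed and 9.68 ± 0.30 in non-stressed libraries (SD, n = 5 each). The difference of 0.48 had an exact permutation p of 0.0159 (two-sided, adjusted p = 0.0635 over 4 measures). Its genes did not differ alike. Chil3 stood at 3134 to 4266 CPM in stressed and 894 to 1416 CPM in non-stressed libraries, and Vcan at 249 to 407 CPM in stressed and 99.7 to 236 CPM in non-stressed libraries, with no overlap for either. Ly6c2 stood at 618 to 1144 CPM in stressed and 664 to 1271 CPM in non-stressed libraries, and Ccr2 at 1492 to 2045 CPM in stressed and 1277 to 2204 CPM in non-stressed libraries, so that these overlapped. Cd36 had an r of -0.885 with this level (permutation p = 0.000440, adjusted p = 0.00440) and a rho of -0.842 (permutation p = 0.00361, adjusted p = 0.0361). The r was -0.736 without the 2 farthest libraries, -0.895 after subtraction of the group means and -0.797 within the 6 libraries with Ddx3y reads (exact permutation p = 0.0708). Mylip had an r of -0.764 (permutation p = 0.0101, adjusted p = 0.0504), which did not pass. Of the 20 relations with either marker level 3 passed by Pearson r, Nr1h3 and Cd36 with the first and Cd36 with the second. By Spearman rho Cd36 with the first did not pass (adjusted p = 0.0523, permutation test), while the others of these did. With the non-classical marker level as a term in the edgeR fit, an addition made after the data were seen, the log2 fold change of Cd36 was -0.72 (SE 0.14, unadjusted p = 0.000101, adjusted p = 0.112). No such fit was made for the classical marker level, so its part in the Cd36 difference was not tested.

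Platelets also carry Cd36. The 5 platelet markers summed to 99.2 to 226 CPM in stressed and 57.9 to 208 CPM in non-stressed libraries. Their mean log2 CPM was 4.48 ± 0.55 in stressed and 3.94 ± 0.73 in non-stressed libraries (SD, n = 5 each), between groups the direction opposite to that of Cd36 (exact permutation test, p = 0.198, adjusted p = 0.397 over 4 measures). This level was 5.04, 4.91, 4.60, 3.74 and 4.11 in stressed replicates 1 to 5, and 3.82, 4.48, 4.88, 3.22 and 3.29 in non-stressed replicates. Within both groups replicates 4 and 5 were lowest in this level and in Cd36. A correlation of Cd36 with the platelet level was not tested. Cells of fat and liver, rich in several of the genes, left almost no marker reads. The 4 adipocyte markers summed to at most 0.71 CPM in stressed and 0.174 CPM in non-stressed libraries, and the hepatocyte markers Alb, Ttr and Serpina1a had 0 reads. Of 8 resident macrophage markers 5 reached a mean of 1 CPM, Folr2 had 0 reads, and the list summed to 37.9 to 82.5 CPM in stressed and 44.3 to 107 CPM in non-stressed libraries. The 6 foamy macrophage markers summed to 974.9 to 1239 CPM in stressed and 936 to 1094 CPM in non-stressed libraries, most of it Lgals3. The 6 erythroid markers summed to 1172 to 5524 CPM in stressed and 1332 to 2778 CPM in non-stressed libraries. Smooth muscle markers summed to at most 18.1 CPM in stressed and 17.4 CPM in non-stressed libraries, and fibroblast markers to at most 0.458 CPM in stressed and 0.209 CPM in non-stressed libraries. The part of these other cells in the levels was not tested.

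Among themselves, the genes had their highest correlations over all 10 libraries between Cd36, Abcg1 and Mylip, group differences included. Of the 45 pairs, 30 had a positive Pearson r, with a median of 0.385. The highest were Abcg1 with Cd36 at 0.863 (rho 0.915), Mylip with Cd36 at 0.845 (rho 0.685) and Abcg1 with Mylip at 0.827 (rho 0.745). Their permutation p-values for r were 0.00317, 0.00336 and 0.00570. None of the 45 passed adjustment by Pearson r (adjusted p = 0.0756, 0.0756 and 0.0855 for these), and by Spearman rho Abcg1 with Cd36 did (permutation p = 0.000640, adjusted p = 0.0288). Without the 2 libraries farthest from the median of the first-named gene the values of r were 0.829, 0.801 and 0.737, and within the 6 libraries with Ddx3y reads they were 0.906, 0.930 and 0.913 (exact permutation p = 0.0458, 0.0208 and 0.0278). After subtraction of the group means they were 0.817, 0.793 and 0.742. The highest were then Nr1h3 with Cd36 at 0.886 and Mylip with Scarb1 at 0.834.

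Nr1h3 had an r of 0.761 with Cd36 and the efflux pair Abca1 and Abcg1 one of 0.707, neither past adjustment (adjusted p = 0.155 and 0.224, permutation test). Msr1 had a negative r with all 9 other genes, from -0.60 with Lrp1 to -0.05 with Nr1h2, and Nr1h2 one of -0.57 with Mylip, none of which passed. All these values come from the same 10 libraries and share their scaling.

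**Figure D5:**
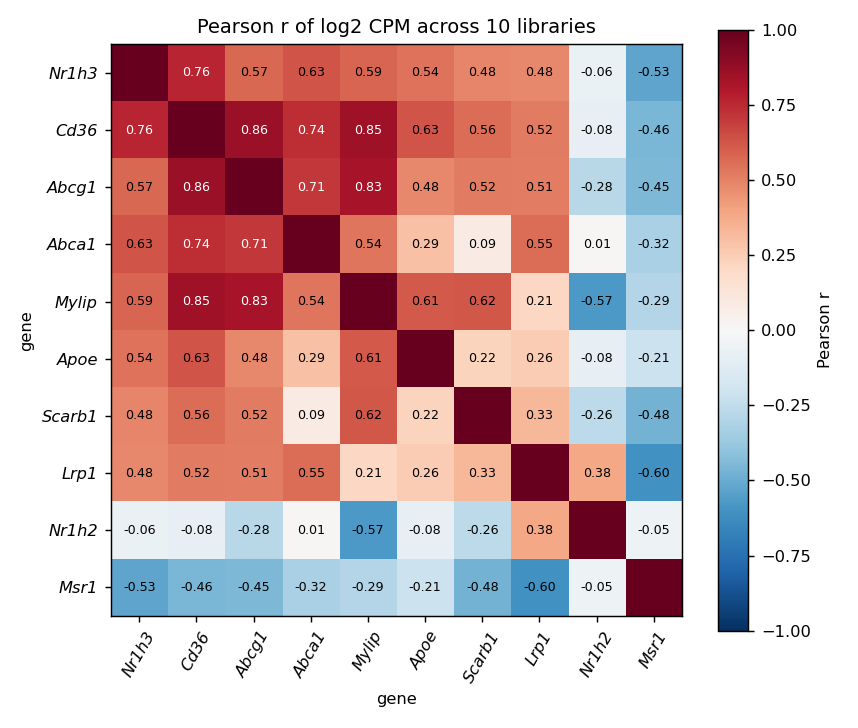
Pearson r between each pair of the 10 genes over 10 libraries (log2 CPM), from blue at -1 to red at 1. Cd36, Abcg1 and Mylip form the block of highest values (0.83 to 0.86), and the row of Msr1 is negative throughout.

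The wider pathway was read from 68 related genes in 5 lists, of which 48 were tested. None passed in edgeR, and 3 had an unadjusted p under 0.05, against 5.53% of all genes. DESeq2 was fitted to every gene with reads, so its count also covers related genes outside the 48. None passed there either, and 4 had an unadjusted p under 0.05, against 4.87% of all genes. Of the 48, 21 had a log2 fold change above 0 and 27 below, with a median of -0.04 beside 0.004 for all genes.

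Of the LXR partners and further targets, 13 of 20 were tested, 3 above and 10 below 0, with a median of -0.06. Rxrb, which encodes a retinoid X receptor, had a stressed over non-stressed log2 value of 0.18 (SE 0.08; adjusted p in edgeR 0.886). Smpdl3a, a phosphodiesterase gene that LXR induces, had 0.17 (SE 0.08), Pltp, the phospholipid transfer protein, -0.33 (SE 0.25), and Lpcat3, which makes polyunsaturated phospholipids, -0.17 (SE 0.13). Rxrg, Nr1h4, Abcg5 and Apoc2 had 0 reads.

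Of the other scavenger receptors, 10 of 15 were tested, 4 above and 6 below 0, with a median of -0.25. Scarf1, a receptor for modified LDL, stood at 20.2 ± 5.08 CPM in stressed and 28.4 ± 2.93 CPM in non-stressed libraries (SD, n = 5 each), with a log2 difference of -0.48 (SE 0.16; adjusted p in edgeR 0.829). Stab1, the receptor stabilin-1, had 0.80 (SE 0.39), Cd163, the haemoglobin scavenger receptor, -0.32 (SE 0.26), and Olr1, the oxidised LDL receptor LOX-1, -0.32 (SE 0.33). Marco, Scara3 and Scara5 had 0 reads.

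Of the LDL receptor family and its chaperones, 10 of 12 were tested, 8 above and 2 below 0, with a median of 0.04. Lrpap1, the chaperone that keeps Lrp1 free of ligand during its synthesis, stood at 118 ± 11.1 CPM in stressed and 100.1 ± 12.7 CPM in non-stressed libraries (SD, n = 5 each), with a log2 difference of 0.24 (SE 0.10; adjusted p in edgeR 0.874). Lrp4 had 0.39 (SE 0.33) and Lrp6, a Wnt co-receptor, 0.09 (SE 0.11). Vldlr and Lrp2 had 0 reads.

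Of the genes of cholesterol storage and handling, 9 of 12 were tested, 4 above and 5 below 0, with a median of -0.02. Soat1, which esterifies cholesterol for storage, had -0.14 (SE 0.08, adjusted p = 0.927 in edgeR), Stard3 -0.10 (SE 0.08), Nceh1, a cholesterol ester hydrolase, -0.12 (SE 0.13) and Npc2, which carries cholesterol in lysosomes, -0.07 (SE 0.11). Of the PPAR factors and fatty acid binding genes, 6 of 9 were tested, 2 above and 4 below 0, with a median of -0.08. Ppard had 0.06 (SE 0.09, adjusted p = 0.976 in edgeR), Fabp5 -0.17 (SE 0.26), Cpt1a -0.06 (SE 0.09) and the low Angptl4 0.80 (SE 1.2).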

How the data were processed

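RNA from sorted cells was made into TruSeq Stranded libraries after PicoPure extraction, per the labels' protocols. The authors deposited raw counts of reads per gene for all 10 libraries. Per the submitters' processing notes, Trimmomatic, STAR, featureCounts and the mm10 build were used; versions, annotation and strand setting were not given in the sources used. Ensembl identifiers were matched to symbols with GENCODE M21 (48144 of 48526). Counts were fitted over all genes with edgeR 4.0.16 in R 4.3.3 (TMM factors 0.990 to 1.007, filterByExpr at a minimum count of 10, quasi-likelihood test, Benjamini-Hochberg threshold 0.05), and checked with DESeq2 1.42.0 and limma 3.58.1. The genes tested held at least 99.8% of each library's counts. An expected count of 3, about the most that an observed 0 allows, corresponds to 0.0785 to 0.166 CPM, for counting error only. TPM was computed from counts and union exon lengths. Correlations used log2 CPM with a prior count of 2 and 100000 resamples (scipy 1.17.1). No libraries of a group were duplicates (chi-square per degree of freedom 21.1 to 64.8). Only the edgeR comparison was tried on simulated counts, and the other steps were not.

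The 10 genes and all lists were chosen with earlier results of these data known. All 10 genes are named, and of each related list up to 4 tested genes with the smallest p; some genes of these lists are not reported here. Marker genes are named where their level stands beside a result. Alternatives were other scaling factors and filters, DESeq2, limma-voom, a replicate block, a Ddx3y term, each library left out, and a non-classical marker term added after the data were seen.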

Additional observations from a re-analysis of the deposited data

Results flagged for a closer look

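In 60 sets of 5 libraries, 3 libraries lay far from the other 4 of their group (gap to the nearest library over the range of the group, above 0.71); chance flags about 1 in 20 such sets. Abca1 stood at 284 CPM in stressed replicate 1, and the nearest stressed library had 220.1 CPM. Mylip stood at 85.4 CPM in stressed replicate 2, and the nearest stressed library had 75.9 CPM. Ppard stood at 61.4 CPM in non-stressed replicate 1, and the nearest non-stressed library had 56.6 CPM.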

How the results depend on the processing

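The count of all genes past the threshold was 1 in the edgeR fit, 18 with DESeq2 (13 higher, 5 lower), 2 with limma-voom, 10 without a low-count filter (7 higher, 3 lower), 4 with a replicate block (3 higher, 1 lower), 4 with the non-classical marker term, and 1 to 2 with each library left out (2 without non-stressed replicate 5); the cause was not tested. The counts of the 10 genes and of the related genes past the threshold were 0 under every alternative run. The log2 fold change of Cd36 was -0.98 to -0.72 under the other settings and -1.15 to -0.68 with each library left out, with a lowest adjusted p of 0.112 (edgeR). With each library left out Abca1 ran from -0.26 to -0.11, Apoe from -0.27 to -0.062, Nr1h2 from 0.024 to 0.086 and Lrp1 from 0.0018 to 0.072. Signs turned for Nr1h3 (0.030 with the replicate block, 0.10 with the non-classical term, -0.20 to 0.12 with each library left out) and Scarb1 (-0.0033 with limma-voom, -0.038 to 0.048 with each library left out). They also turned with a library left out for Msr1 (-0.11 to 0.045), Fabp5 (-0.34 to 0.030) and the difference in the log2 ratio of Nr1h3 to Nr1h2 (-0.26 to 0.13). Same-numbered libraries of both groups had correlations of -0.03 to 0.16 in their deviations, 4 of 5 above 0.1. Presence of Ddx3y reads was the same at each number in both groups. Of the libraries, 4 of 5 stressed and 3 of 5 non-stressed correlated best with their own number. A link by number is thus possible, but the labels state none, so the block was kept as an alternative. Abca1, Mylip and Cd36 were lower in the stressed library at all 5 numbers, and Abcg1 and Apoe at 4. Nr1h3, Msr1, Lrp1 and Scarb1 were lower at 3 and Nr1h2 at 1. With the replicate block Cd36 had -0.82 (SE 0.15, unadjusted p = 0.000128 against 0.0274 without it, adjusted p = 0.121, edgeR), and the ratio difference was -0.03. Depth did not limit detection of the 10 genes; 5 libraries a group limit the precision of their differences.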
